A study of Oryctolagus cuniculus with 20 samples.

Results

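Unoperated common carotid arteries of rabbits (Oryctolagus cuniculus) collected on day 30 were compared with those collected on day 14. Each artery came from the side opposite to an artery that had been transplanted into a vein, so its animal had undergone surgery and the artery itself had not. The comparison used 8 of the 20 libraries of the series, 4 for each day, and every gene with a level of at least 1 FPKM in at least 4 of the 20 libraries, 8657 of 23669 genes. The deposited unit is FPKM, a fragment count scaled to transcript length and library size. The other 12 libraries, from transplanted arteries of both days and from unoperated vein, entered the fit and served as a reference for a few genes. No group was given an agent or a named allele, all samples carry the same treatment entry for transplantation, and breed, sex and age are not given. A cell line entry, HASMC, is attached to every sample, in conflict with the tissue entries. The 4 libraries of a group are named biological replicates, but nothing says that each had its own animal. The p-values therefore reflect only the spread among these libraries, which may be technical.

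The carotid artery is an elastic artery. Its middle layer is built of smooth muscle cells between sheets of elastin, lined inside by endothelium and wrapped outside by an adventitia of fibroblasts, small vessels, fat and nerve. Smooth muscle of a resting artery holds large amounts of contractile proteins, and immediate early genes are switched on within minutes by mechanical strain, growth factors or handling of the tissue. In RNA of a whole vessel piece, fewer cells of a type and less RNA per cell cannot be told apart.

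The libraries of the 2 days differed in how alike they were. Over 886 genes above 30 FPKM in all 8 libraries, the median SD of log2 values was 0.0617 at day 14 and 0.168 at day 30. Any pair of day 14 libraries differed by a median of 0.0521 to 0.0794 on the log2 scale, against 0.105 to 0.288 within day 30 and 0.172 to 0.286 between the days. Mixtures were examined over another set, the tested genes with a mean of at least 10 FPKM over all 20 libraries. There, day 30 replicate 2 was nearly a mixture of its 3 companions (0.5 of replicate 3, 0.35 of replicate 4 and 0.15 of replicate 1). Its median difference from that mixture was 0.0879, against 0.156 to 0.234 when each of the other 3 was treated in this way. The day 14 libraries differed by 0.0791 to 0.0825 from mixtures of their own companions. Because the day 14 libraries were nearly identical, results are also given with them counted as 1 sample, and counts are also given without day 30 replicate 2. Library sums of FPKM were 403657 to 421780 at day 14 and 327806 to 379746 at day 30, and 6759 to 7096 genes reached 1 FPKM.

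Contractile smooth muscle genes stood far above markers of neighbouring glands and epithelium. Summed FPKM of 38 contractile genes was 22952 to 23690 at day 14 and 18654 to 24636 at day 30. By contrast, 21 thyroid, parathyroid, thymus and epithelial genes together held 0.72 to 2.11 and 2.99 to 4.87 FPKM, with 13 of them at 0 in all 8 libraries. A listed 0 need not mean absence, as the endothelial marker PECAM1 was also at 0 in all 8 libraries. These sums do not tell carotid artery from other smooth muscle. Markers of nerve (29 genes) summed to 123 to 136 and 101 to 165 FPKM, and those of skeletal muscle (29 genes) to 587 to 651 and 497 to 609.6 FPKM. Fibroblast markers (22 genes) summed to 5155 to 5310 FPKM at day 14 and 4373 to 7660 FPKM at day 30.

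Between day 14 and day 30, the test called 929 genes, 10.7% of those tested, with 544 higher (6.28%) and 385 lower (4.45%) at day 30. Limma on log2(FPKM + 1) with Benjamini-Hochberg adjustment over all genes and a threshold of 0.05 made the calls. With day 14 counted as 1 sample, 29 genes were called (0.335%), 17 higher and 12 lower, all of them among the 929, and 682 genes had an unadjusted p under 0.05. That fit has no spread of its own for day 14, whose 1 value is assumed to vary like the libraries of the other groups. Without day 30 replicate 2 the count was 649, and with both changes it was 21. The libraries of the 2 days did not overlap in 1976 genes (22.8%). Over all genes the median log2 change was 0.05. The share of higher genes among the calls, 58.6%, depended on scale: scaling each library to the same sum (TPM) gave 846 higher and 137 lower genes (86.1% higher) and moved the median of all genes by 0.20, quantile normalization gave 421 higher and 551 lower (43.3%), and median-of-ratios scaling gave 504 and 558 (47.5%). Of the genes tested, 12 reached 1 FPKM in all 4 libraries of one control day and in no other library of the series, and all 12 were called. A gene that passed the filter in this way had to differ. Among the 12 are CDH19, TACR2, MYOCD, HTR1E, CYBB and F2, for which no test is given below. List counts include CDH19, MYOCD and CYBB, and the largest changes and their figure include CDH19 and MYOCD. In what follows, every call outside the 29 ended when day 14 was counted as 1 sample, and log2 changes are on the log2(FPKM + 1) scale, which understates changes of low genes.

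The rises that held in both counts of day 14 were led by SSPN, TACR1, FAM83D and ALKAL2. SSPN, sarcospan, a membrane protein of the dystrophin complex that ties muscle cells to their matrix, was listed at 0, 0, 1.27 and 0 FPKM in the day 14 replicates 1 to 4 and at 65.7, 47.5, 30.2 and 64.2 FPKM in those of day 30. The log2 change was 5.37 (SE 0.33, limma adjusted p = 1.04e-08). TACR1, the receptor for the neuropeptide substance P, stood at 0.1, 0.05, 0.06 and 0.01 FPKM at day 14 and at 14.3, 19.1, 26.1 and 12.6 FPKM at day 30 (log2 change 4.12, SE 0.33, limma adjusted p = 3.88e-07). The day 30 libraries all lay far above the day 14 ones. TACR2, the related receptor for neurokinin A, stood the other way, at 3.03, 3.54, 2.68 and 3.28 FPKM at day 14 and at 0.7, 0.83, 0.56 and 0.98 FPKM at day 30. TACR2 was chosen for naming after its values were seen.

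FAM83D, a protein of the mitotic spindle, rose from 1.05 ± 0.252 to 26.7 ± 10.2 FPKM (log2 change 3.67, SE 0.23). Here and below, ± gives the SD over 4 libraries. ALKAL2, a ligand of the receptor kinase ALK, rose from 1.32 ± 0.407 to 14.5 ± 1.23 FPKM (2.75, SE 0.14). Its day 30 libraries, 13.5, 13.3, 15.3 and 15.7 FPKM, were close together. MYOCD, myocardin, the coactivator of serum response factor that drives contractile genes in smooth muscle, stood at 0.36, 0.71, 0.43 and 0.1 FPKM at day 14 and at 2.87, 5.77, 8.22 and 7.66 FPKM at day 30. UBB, a polyubiquitin gene, rose from 136 ± 1.75 to 481 ± 41.5 FPKM (1.81, SE 0.15), with the lowest day 30 library at 438 FPKM and the highest day 14 library at 138 FPKM. DNER, a neuronal ligand of Notch receptors, rose from 9.0 ± 0.659 to 32.7 ± 6.45 FPKM, and MFNG, a glycosyltransferase that modifies Notch receptors, from 3.52 ± 0.59 to 10.4 ± 2.13 FPKM. ECM1, extracellular matrix protein 1, rose from 3.03 ± 0.264 to 10.5 ± 1.2 FPKM and BMPER, an extracellular regulator of bone morphogenetic proteins, from 1.98 ± 0.338 to 7.87 ± 1.81 FPKM. ASB1, KLHL41, IFRD1 and PRKCH, the last a protein kinase C, had log2 changes of 1.53, 1.51, 1.28 and 1.23. They completed the 14 largest rises that held in both counts and averaged at least 5 FPKM at day 30. Lack of overlap and a pass in both counts of day 14 were conditions for the 14, so neither is a result about them.

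CDH19, a cadherin known from Schwann cells, stood at 13.5, 12.4, 12.6 and 14.4 FPKM at day 14 and was listed at 0 in all 4 day 30 libraries. It was also listed at 0 in every vein library and averaged 0.005 FPKM or less in the grafts of either day, so day 14 controls were alone in holding it at a level above 1 FPKM. Among the falls that held in both counts, STC2, the secreted hormone stanniocalcin 2, fell from 8.23 ± 0.345 to 0.855 ± 0.5 FPKM (-2.35, SE 0.16). ADAMTS15, a protease of matrix proteoglycans, stood at 20.6, 22.1, 23.3 and 22.6 FPKM at day 14 and at 4.99, 5.19, 4.4 and 3.48 FPKM at day 30 (log2 change -2.08, SE 0.16, limma adjusted p = 1.74e-07). ACSM5, an acyl-CoA synthetase of mitochondria, fell from 24.4 ± 0.618 to 7.55 ± 0.862 FPKM, and TUBB, a beta-tubulin, from 37.2 ± 2.1 to 12.6 ± 2.77 FPKM. FKBP4, a co-chaperone of steroid hormone receptors, fell from 44.3 ± 1.21 to 24.6 ± 0.904 FPKM (-0.82, SE 0.08). The naming rule filled the list of falls with 8 genes called only when the day 14 libraries counted as 4: ST13, LYZ, COX6C and 5 mitochondrially encoded genes. Lack of overlap was a condition for the falls too, so it is no result about them.

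**Figure D1:**
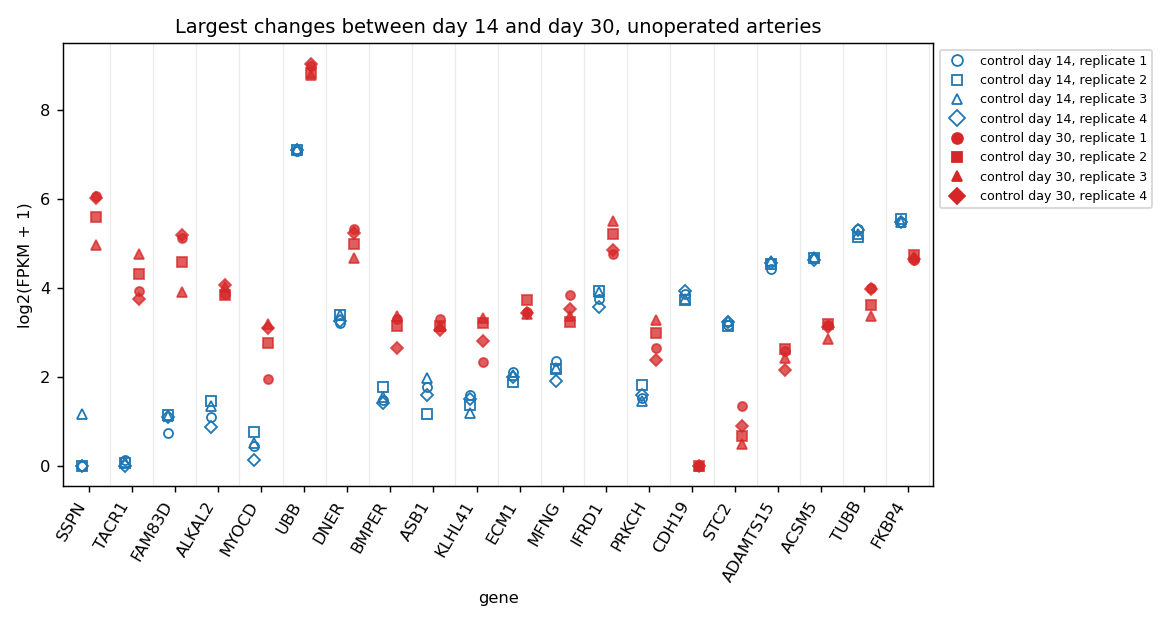
Levels of the 20 largest changes that held in both counts of day 14, as log2(FPKM + 1) on the y axis and genes on the x axis; open blue symbols are the 4 day 14 libraries, filled red symbols the 4 day 30 libraries, and the symbol shape gives the replicate. The genes were chosen for groups that do not overlap, and the 14 rises are on the left and the 6 falls on the right.

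Several named genes were listed at 0 throughout one group while standing high in the other. TXN, thioredoxin, was listed at 0 in all 4 day 14 libraries and at 162, 73.4, 60.7 and 132 FPKM at day 30. ST13, a co-chaperone of HSP70, stood at 154, 159, 147 and 158 FPKM at day 14 and at 0, 0, 0.55 and 1.80 FPKM at day 30. RPL27, a protein of the large ribosomal subunit, was listed at 0 in all day 14 libraries and at 292, 103, 0 and 201 FPKM at day 30. RPS15A, of the small subunit, was listed at 0 in all day 14 libraries and at 125, 92.6, 0 and 26.6 FPKM at day 30. TXN, RPL27 and RPS15A are genes that every cell uses, so a listed 0 can be a failed estimate, and no fold is given for them. The calls of RPL27 and RPS15A ended without any 1 day 14 library and without day 30 replicate 1, 2 or 4 (highest limma adjusted p 0.0692 and 0.141). COX6C, a subunit of cytochrome oxidase, occurs under a pair of gene IDs, one at 323, 365, 329.6 and 271 FPKM falling to 176, 21.4, 44.2 and 33.1 FPKM, the other at 95.6, 70.8, 52.0 and 86.8 FPKM falling to 6.91, 1.26, 0 and 0 FPKM. How reads were divided between near-identical gene copies is not known. Of the 929 called genes, 109 were listed at 0 in at least 1 of the 8 libraries, a smaller share than the 1524 of all 8657 genes tested. Among the calls, 18 of the rises were at 0 in all day 14 libraries and 11 of the falls at 0 in all day 30 libraries.

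The mitochondrially encoded genes split by gene. ND1 and ND2, subunits of complex I, and COX1, the catalytic subunit of cytochrome oxidase, were not called. ND1 went from 2352 to 2434 FPKM at day 14 to 3524, 2846, 2514 and 3210 FPKM at day 30. COX1 stood at 10115, 10126, 10037 and 10301 FPKM at day 14 and at 9991, 9069, 8266 and 9785 FPKM at day 30 (log2 change -0.13, SE 0.23, limma adjusted p = 0.79). ATP8, a small subunit of ATP synthase, stood at 37037, 37246, 37849 and 38325 FPKM at day 14 and at 14.6, 4.33, 5.29 and 0 FPKM at day 30. ATP6, its partner subunit, went from 7008, 7102, 7141 and 7036 FPKM to 2.44, 0.66, 2.33 and 1.37 FPKM, and ND4L from between 3281 and 3767 FPKM to a listed 0 in every day 30 library. All 3 were low in each day 30 library.

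A different arrangement was seen in COX2, ND3, ND4, ND5 and CYTB, where day 30 replicates 1 and 4 were near 0 and replicates 2 and 3 were not. CYTB, cytochrome b of complex III, was listed at 0, 1569, 2939 and 0.1 FPKM at day 30, against 3621, 3739, 3719 and 3619 FPKM at day 14. COX2 stood at 2.13, 2359, 3990 and 2.35 FPKM at day 30, after 9732 to 9895 FPKM at day 14. COX3 (26.3, 970.5, 1307 and 419 FPKM) and ND6 (155, 952, 1396 and 256 FPKM) were lower than their day 14 levels of 7039 to 7102 and 2651 to 2761 FPKM in every day 30 library. The test called 5 of the 13 genes lower and none higher (ATP6, ND4L, ATP8, COX3 and ND4), with a median of -6.19 over the 13. The share called was 38.5%, against 10.7% of all genes. ND4 was called (limma adjusted p = 0.0431), and its call ended without any 1 of the 4 day 14 libraries and without day 30 replicate 1 or 4 (highest adjusted p 0.117). On the vertebrate mitochondrial genome ND1, ND2 and COX1 lie next to one another, ahead of the run of genes from COX2 to CYTB that was low.

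Low levels of the same genes were found in vein. Vein libraries averaged 2.76 FPKM of COX2, 5.80 FPKM of ATP8, 1.38 FPKM of ATP6 and 0.025 FPKM of CYTB, and a listed 0 of ND4L, with 10064 FPKM of COX1. The 4 grafts of day 14 were spread from a listed 0 to 73281.5 FPKM of ATP8 and from 0.2 to 10420.5 FPKM of CYTB, so a graft library near 0 occurred too, and their COX1 lay between 9921 and 28977 FPKM. The 13 genes summed to 95195 to 97896 FPKM in the day 14 controls and to 16683, 23490.5, 28469 and 16614 FPKM in the day 30 replicates 1 to 4. FPKM of other genes share the same total, and the part of that in other results was not tested. The median of all genes moved by 0.20 under TPM scaling, -0.041 under median-of-ratios scaling and -0.069 under quantile normalization. Of 47 nuclear genes of oxidative phosphorylation, 3 rose and 3 fell (12.8% called, against 10.7% of all genes, median 0.11). Those that rose were CYCS, cytochrome c, COX8A and COX7A1, and those that fell were the 2 COX6C entries and UQCRB. The calls of CYCS, COX8A and COX7A1 each ended without day 30 replicate 1 or without any of several other single libraries (highest limma adjusted p 0.0719, 0.112 and 0.139).

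**Figure D2:**
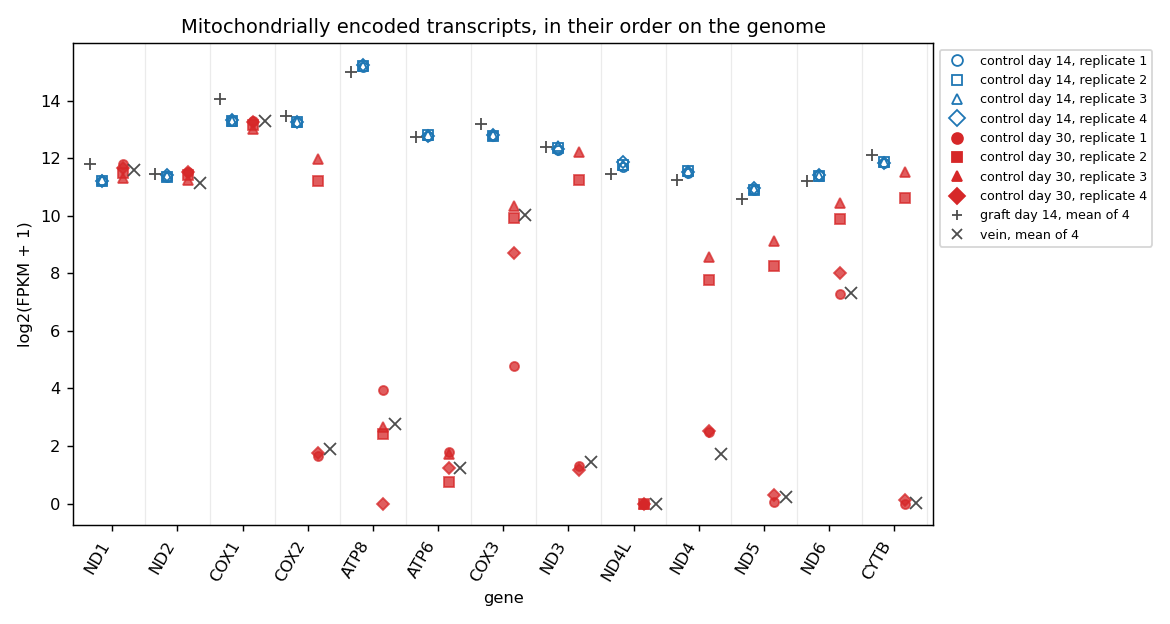
Mitochondrially encoded genes on the x axis, in their order on the vertebrate mitochondrial genome, with log2(FPKM + 1) on the y axis; open blue symbols are the day 14 control libraries, filled red symbols the day 30 control libraries, and the grey plus and cross are the means of 4 grafts of day 14 and of 4 veins. For COX1 the day 14 and day 30 controls are close (10037 to 10301 and 8266 to 9991 FPKM), while for COX2 day 30 replicates 1 and 4 lie at the vein mean (2.13, 2.35 and 2.76 FPKM) and replicates 2 and 3 between it and day 14.

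Many immediate early genes and stress-responsive regulators were higher at day 30. Of 39 tested, 19 were higher and 1 lower at day 30 (51.3% called, against 10.7% of all genes), and their median log2 change was 1.10 against 0.05. The summed level of the list was 881 to 939 FPKM at day 14 and 2525 to 3505 FPKM at day 30. BTG2, which restrains cell division, stood at 7.06, 6.60, 7.70 and 6.51 FPKM at day 14 and at 244, 145, 113 and 154 FPKM at day 30 (log2 change 4.32, SE 0.51, limma adjusted p = 4.27e-05). EGR2, a zinc finger transcription factor, was at 0, 0.45, 0.69 and 0.9 FPKM and then at 16.3, 15.2, 12.1 and 9.60 FPKM (3.26, SE 0.41). In both genes the 4 day 30 libraries were all high. SGK1, a kinase induced by serum and glucocorticoids, rose from 2.69 ± 0.391 to 15.8 ± 4.15 FPKM, and EGR3 from 0.158 ± 0.186 to 6.50 ± 2.62 FPKM. KLF4, a transcription factor that restrains contractile genes in smooth muscle, rose from 9.41 ± 0.473 to 53.8 ± 11.2 FPKM.

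The members did not follow one order of the day 30 libraries. FOS, a subunit of the AP-1 transcription factor, stood at 49.4, 54.0, 49.8 and 49.7 FPKM at day 14 and at 1262, 491, 76.0 and 828 FPKM at day 30, highest in replicate 1 and lowest in replicate 3. Its call (log2 change 3.11, SE 0.86, limma adjusted p = 0.0272) ended without any 1 of the day 14 libraries and without day 30 replicate 1, 2 or 4 (highest adjusted p 0.081). FOSB, its relative, was highest in replicate 3, at 118, 164, 240.3 and 84.6 FPKM after 5.85 to 6.85 FPKM at day 14 (4.27, SE 0.88). ZFP36, which destabilises mRNAs of cytokines, followed the order of FOSB, at 246, 384, 546 and 206 FPKM after 58.2 to 65.9 FPKM. ID1, an inhibitor of helix-loop-helix factors, followed that of FOS, at 261, 128, 86.0 and 176 FPKM after 47.7 to 54.9 FPKM. JUN, the partner of FOS, overlapped between the days, with 67.5, 19.4, 8.14 and 31.8 FPKM at day 30 against 17.1 to 28.7 FPKM at day 14 (0.04, adjusted p = 0.99). ATF3 rose from 41.0 ± 1.52 to 106 ± 23.2 FPKM. KLF15, a glucocorticoid-responsive factor, was the member that fell, from 40.5 ± 3.62 to 22.9 ± 1.22 FPKM, and that call (adjusted p = 0.0474) ended without any 1 of the 8 libraries (highest adjusted p 0.11). Without day 30 replicates 2 and 3 the list had 12 higher and 0 lower, without replicate 2 alone 13 and 0, and with day 14 as 1 sample limma called 0 and 0, with 14 genes at an unadjusted p under 0.05 and a median of 1.10.

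**Figure D3:**
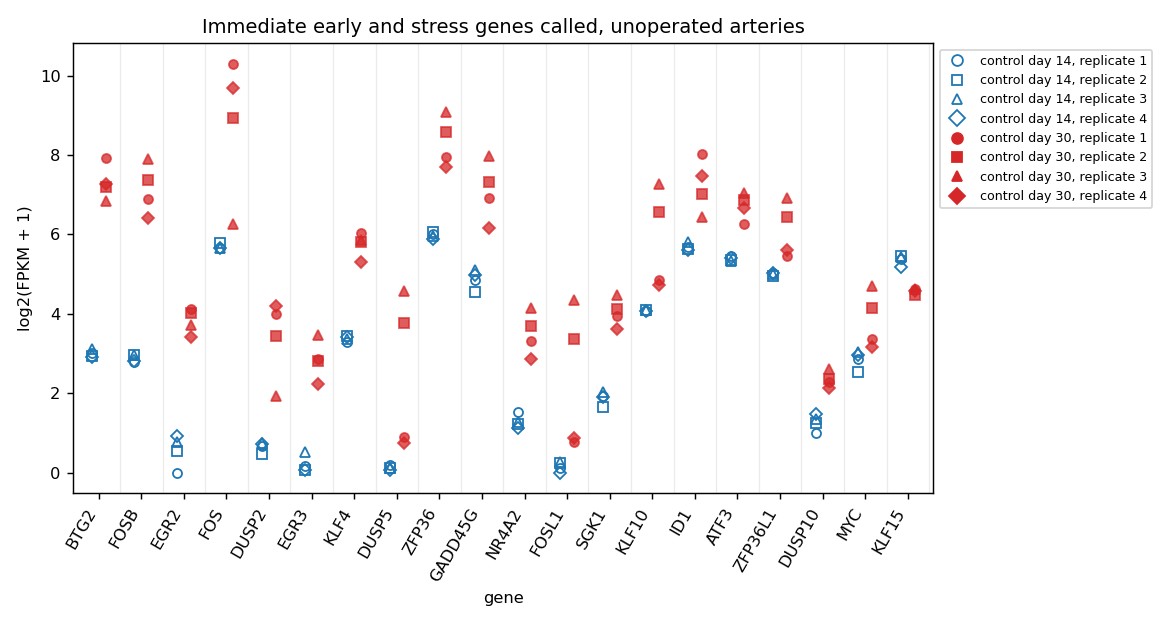
Immediate early and stress genes that passed the test, on the x axis, with log2(FPKM + 1) on the y axis; open blue symbols are the 4 day 14 libraries and filled red symbols the 4 day 30 libraries, with the symbol shape giving the replicate. The day 14 symbols lie close together for most genes, and the day 30 symbols spread more widely, for FOS from 76.0 to 1262 FPKM.

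Inflammatory mediators were higher in 8 of 31 cases and lower in 0 (25.8% called, against 10.7% of all genes), with a median of 1.06, and the rise was uneven between libraries. PTGS2, the inducible cyclooxygenase that makes prostaglandins, stood at 0.91, 0.69, 0.85 and 1.33 FPKM at day 14 and at 36.3, 93.7, 166 and 15.1 FPKM at day 30 (log2 change 4.85, SE 0.69, limma adjusted p = 0.000248). CCL2, which attracts monocytes, went from 0.76, 1.9, 1.58 and 0.36 FPKM to 12.2, 112, 182 and 8.05 FPKM (4.27, SE 0.73). CXCL8, which attracts neutrophils, was at 0.07 to 0.42 FPKM at day 14 and at 1.1, 71.5, 129.8 and 5.24 FPKM at day 30 (3.99, SE 0.90). All 3 were highest in day 30 replicate 3 and next highest in replicate 2. Summed over 40 genes, the list held 140.5 to 149 FPKM at day 14 and 226, 1019, 1824 and 162 FPKM in day 30 replicates 1 to 4. CCL14 and CCL24, further chemokines, were more even at day 30, at 8.73, 8.04, 9.34 and 6.36 FPKM and at 1.8, 1.57, 1.71 and 1.54 FPKM, CCL24 after a listed 0 in all day 14 libraries. Without day 30 replicates 2 and 3 the list had 4 higher and 2 lower and a median of 0.16.

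Endothelial markers were higher in 8 of 26 cases and lower in 1 (34.6% called, against 10.7% of all genes), with a median of 0.73. VCAM1 and ICAM1, adhesion molecules for leukocytes, showed the order of the chemokines. VCAM1 stood at 0.5 to 0.71 FPKM at day 14 and at 2.89, 37.9, 68.9 and 1.49 FPKM at day 30, and its call (limma adjusted p = 0.0137) ended without day 30 replicate 2 (adjusted p 0.0547). ICAM1 stood at 13.5 to 15.9 FPKM and then at 31.7, 168, 320.1 and 16.2 FPKM, a call that ended without day 30 replicate 2 or 3 and without day 14 replicate 1 or 2 (highest limma adjusted p 0.0800). SELP, P-selectin, on which leukocytes roll, rose from 1.76 ± 0.129 to 21.6 ± 20.7 FPKM, and LYVE1, a hyaluronan receptor of lymphatic vessels and some macrophages, from 1.42 ± 0.704 to 28.8 ± 22.7 FPKM. FABP4, a fatty acid binder of capillary endothelium and fat, was at 21.6 to 23.4 FPKM and then at 34.1, 166, 280.0 and 46.2 FPKM, a call (adjusted p = 0.0392) that ended without day 30 replicate 2 or 3 and without any 1 day 14 library (highest adjusted p 0.126). VWF, von Willebrand factor, rose less, from 7.02 ± 0.224 to 13.1 ± 4.95 FPKM, and its call ended without the same single libraries as that of FABP4 (highest limma adjusted p 0.125). ACKR1, a chemokine-binding receptor of venules, fell from 7.99 ± 0.923 to 3.13 ± 1.84 FPKM. CDH5, the cadherin of endothelial junctions, was at 9.27 to 10.4 FPKM and then at 14.5, 20.5, 28.4 and 10.3 FPKM and was not called (adjusted p = 0.0518), and PECAM1 was at 0 in all 8 libraries. The 34 endothelial markers summed to 854 to 871 FPKM at day 14 and 956, 1372, 1942 and 832 FPKM at day 30, and the 20 adipocyte markers to 208 to 231 and 402, 617, 889 and 324 FPKM. Without day 30 replicates 2 and 3, 1 endothelial gene was higher and 1 lower (median 0.39).

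**Figure D4:**
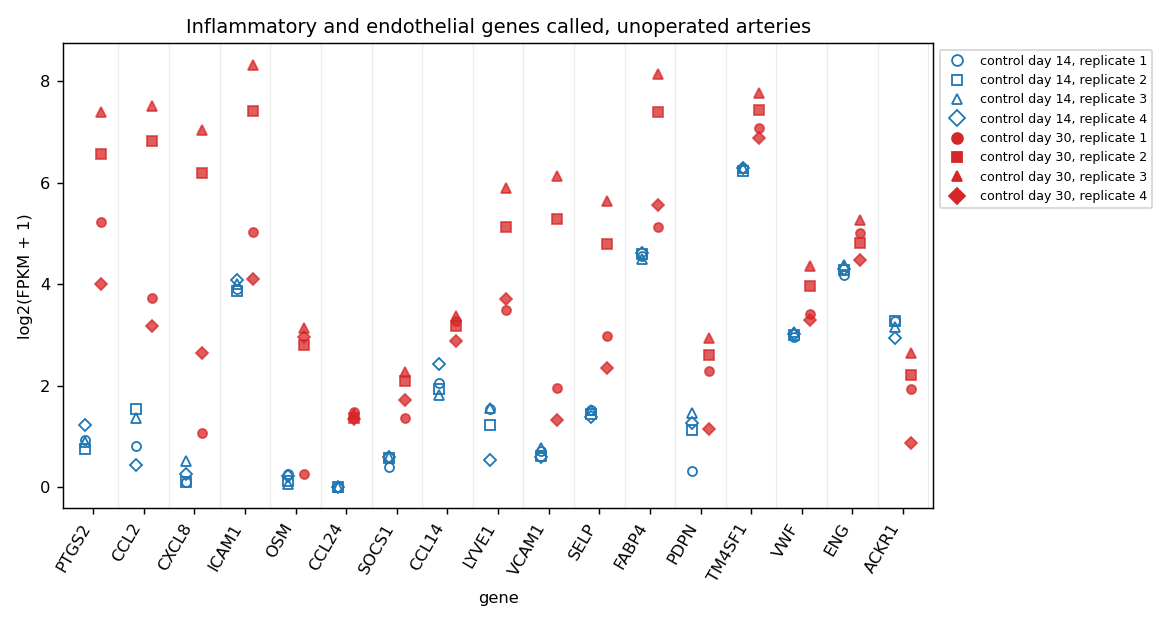
Inflammatory and endothelial genes that passed the test, on the x axis, with log2(FPKM + 1) on the y axis; open blue symbols are the 4 day 14 libraries and filled red symbols the 4 day 30 libraries, with the symbol shape giving the replicate. For PTGS2, CCL2, CXCL8, ICAM1, VCAM1, SELP and FABP4, day 30 replicates 2 and 3 lie well above replicates 1 and 4.

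The order seen in VCAM1 was shared by genes of other lists. THBS1, thrombospondin 1, a matricellular protein that activates latent TGF-beta, stood at 6.24, 5.57, 6.63 and 5.99 FPKM at day 14 and at 10.1, 113, 210.5 and 21.2 FPKM at day 30 (log2 change 2.80, SE 0.63, limma adjusted p = 0.00748). Its call ended without day 30 replicates 2 and 3 (adjusted p 0.0520). With only the 8 control libraries in the fit, the calls of THBS1, CXCL8, VCAM1, ICAM1, IRF1, BIRC3, SELP, FABP4, VWF and ACKR1 ended (limma adjusted p from 0.0534 for SELP to 0.134 for ICAM1). IRF1, a transcription factor of the interferon response, was at 4.12, 52.3, 116 and 2.3 FPKM at day 30, and BIRC3, an inhibitor of apoptosis induced by NF-kappa B, at 3.19, 60.1, 118 and 2.84 FPKM. The calls of IRF1 and BIRC3 each ended without day 30 replicate 2 or 3 and without day 14 replicate 1 or 3 (highest adjusted p 0.0835 and 0.0828). Replicates 2 and 3 were both at least 2-fold above replicates 1 and 4 in 30 of the 544 genes called higher (5.51%) and in 161 of all 8657 genes (1.86%). Among the 544, replicate 2 lay between replicates 3 and 4 in 344 (63.2%), against 50.2% of all genes. Among leukocyte markers, 0 of 15 macrophage genes rose and 2, CYBB and LYZ, fell (13.3% called, against 10.7% of all genes). From 11 lymphocyte and plasma cell genes and 8 neutrophil, mast cell, platelet and erythroid genes, 0 passed limma's test. In these 2 lists, 2 and 1 genes had an unadjusted p under 0.05. The 23 lymphocyte and plasma cell markers together held 1.65 to 3.25 FPKM at day 14 and 2.44, 12.97, 16.9 and 17.3 FPKM at day 30, above every day 14 library in replicates 2, 3 and 4. JCHAIN alone made up 0, 1.05, 1.56 and 0.4 FPKM of these sums at day 14 and 1.22, 8.71, 12.7 and 7.67 FPKM at day 30. The macrophage markers CD68, AIF1, LAPTM5 and VSIG4 were at 0 in all 8 libraries. LYZ, lysozyme, fell from 38.9, 33.8, 41.3 and 32.6 FPKM to 0.42, 1.22, 0 and 4.04 FPKM. HBB2, a beta-globin, was at 712 to 756 FPKM at day 14 and at 605, 1737, 583 and 4712 FPKM at day 30, and S100A8, a calcium-binding protein of neutrophils, at 275 to 309 FPKM and then 10.5, 458, 762 and 273 FPKM. The part of blood, lymphocyte, fat or endothelial RNA in these rises was not tested.

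Other members of the interferon and antigen presentation list were more even. B2M, the light chain of class I histocompatibility molecules, stood at 27.9, 22.1, 15.7 and 28.6 FPKM at day 14 and at 74.1, 76.0, 75.2 and 57.7 FPKM at day 30 (log2 change 1.57, SE 0.30, limma adjusted p = 0.00248). PSMB8, of the immunoproteasome, and TAPBP, which loads peptides onto class I molecules, rose by 0.93 and 0.81 on the log2 scale. Their calls ended without day 30 replicates 2 and 3 (limma adjusted p 0.124 and 0.0774). In all, 5 of 27 rose and 0 fell (18.5% called, against 10.7% of all genes), with a median of 0.37. The call of IFI35, another of the 5, ended without 7 of the 8 single libraries (highest limma adjusted p 0.145).

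The core contractile genes were not called. ACTA2, smooth muscle actin, stood at 7087, 7303, 7229 and 7061 FPKM at day 14 and at 6506, 5985, 5286 and 7611 FPKM at day 30 (log2 change -0.19, SE 0.15, limma adjusted p = 0.476). MYH11, the smooth muscle myosin heavy chain, averaged 29.1 ± 2.82 and 30.2 ± 3.2 FPKM, MYLK, which phosphorylates myosin light chains, 76.3 ± 2.41 and 67.6 ± 9.99 FPKM, and TAGLN, transgelin, 837 ± 131 and 573 ± 164 FPKM. The groups overlapped in each of these 4, and the signs of ACTA2, MYLK and MYH11 changed with the scaling. Of 31 contractile genes tested, 5 rose and 1 fell (19.4% called, against 10.7% of all genes). Their median was -0.18 (0.04 under TPM scaling, where the median of all genes was 0.25). Besides MYOCD, those that rose were CSRP1, a LIM protein of the actin cytoskeleton (669.5 ± 12.1 to 1199 ± 237 FPKM), ACTN1, an actin cross-linker (19.5 ± 3.08 to 38.1 ± 6.14 FPKM), and the tropomyosins TPM1 (7.76 ± 0.65 to 14.5 ± 0.878 FPKM) and TPM4, whose call ended without 6 of the 8 single libraries (highest limma adjusted p 0.103). MRVI1, a substrate of cyclic GMP-dependent kinase at the calcium store, fell from 11.9, 13.5, 12.4 and 10.2 FPKM to 0.12, 4.13, 1.27 and 6.66 FPKM (-2.03, SE 0.42, limma adjusted p = 0.00454, and 0.0513 with only the 8 control libraries).

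Receptors and pumps of the muscle went both ways, with 3 of 35 genes higher and 4 lower (20% called, against 10.7% of all genes, median -0.20). HTR2A, the serotonin receptor that contracts arteries, stood at 1.1, 1.02, 0.88 and 1.03 FPKM at day 14 and at 5.09, 3.94, 3.85 and 4.21 FPKM at day 30 (log2 change 1.39, SE 0.14, limma adjusted p = 4.07e-06), and it passed with day 14 as 1 sample (adjusted p = 0.0164). HTR1B, another serotonin receptor, fell from 81.2 ± 3.07 to 41.8 ± 12.7 FPKM, and HTR1E, chosen after its values were seen, averaged 2.69 ± 0.397 and 0.305 ± 0.191 FPKM. PTGER3, a receptor for prostaglandin E2, stood at 12.7 to 13.6 FPKM and then at 1.04, 3.94, 4.86 and 2.39 FPKM (-1.91, SE 0.38). CASQ2, which buffers calcium in the store, fell from 13.4 ± 0.699 to 5.13 ± 2.14 FPKM. ATP1B1, the beta subunit of the sodium pump, rose from 10.2 ± 0.991 to 25.2 ± 1.06 FPKM.

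Matrix genes were called at 10.5% to 16.7% in 3 lists, against 10.7% of all genes. Of 42 genes of elastic fibres, proteoglycans and matricellular proteins, 5 rose and 1 fell (median 0.10), of 19 collagen genes and collagen-modifying enzymes 2 rose and 0 fell (0.08), and of 36 proteases and inhibitors 4 rose and 2 fell (0.29). FMOD, fibromodulin, a proteoglycan on collagen fibrils, stood at 165, 170.2, 165 and 164 FPKM at day 14 and at 324, 343, 404 and 319 FPKM at day 30 (log2 change 1.06, SE 0.18, limma adjusted p = 0.00129). MGP, matrix Gla protein, an inhibitor of vascular calcification, rose from 6486 ± 98.7 to 12299 ± 3527 FPKM, a call that ended without any 1 library but day 30 replicate 4 (highest limma adjusted p 0.0761). COL1A2, a chain of type I collagen, was at 574, 584, 583 and 561 FPKM and then at 1424, 1059, 1124 and 796 FPKM (0.90, SE 0.16), whereas COL1A1, the other chain, went from 15.2 ± 2.15 to 23.7 ± 8.92 FPKM with overlap and was not called (adjusted p = 0.118). LOXL1, which cross-links elastin, rose from 23.7 ± 0.486 to 37.8 ± 2.22 FPKM. MMP2, a gelatinase, rose from 71.1 ± 1.61 to 126 ± 29.8 FPKM and MMP28, epilysin, from 2.84 ± 0.854 to 7.73 ± 1.1 FPKM, while PLAU, the urokinase plasminogen activator, fell from 22.3 ± 1.01 to 14.3 ± 3.53 FPKM. PRELP, a proteoglycan of basement membranes, fell from 25.4 to 34.4 FPKM at day 14 to 6.71, 0, 0 and 12.6 FPKM, a call that ended without day 30 replicate 2 or 3 and without day 14 replicate 1 or 2 (highest limma adjusted p 0.0810). Of 17 fibroblast and adventitial genes, 3 rose, namely SFRP4, THY1 and CCDC80, and 0 fell (17.6% called, against 10.7% of all genes, median 0.36). SFRP4, a secreted Wnt antagonist, averaged 4.46 ± 0.429 FPKM and then stood at 22.9, 18.4, 22.8 and 7.99 FPKM. The fibroblast sum was lowest in day 30 replicate 4, where these 3 were also lowest, and the call of THY1 ended without replicate 1 or 3 of day 30 (highest limma adjusted p 0.0591). The part of the number of fibroblasts in these values was not tested.

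The thrombospondins differed among themselves. Besides THBS1, THBS3 rose from 5.83 ± 0.868 to 9.52 ± 1.92 FPKM (log2 change 0.61, SE 0.13, limma adjusted p = 0.00555). THBS4, the gene in the title of the series, stood at 0.18, 0.13, 0.31 and 0.33 FPKM at day 14 and at 0.18, 0.46, 0.21 and 0.2 FPKM at day 30, below 1 FPKM in every unoperated artery, with overlapping groups (0.03, SE 0.38, adjusted p = 0.986). THBS2 was below 1 FPKM in all 8 libraries and did not pass the filter on low values. Of 24 apoptosis regulators, 2 rose and 0 fell (8.33% called, against 10.7% of all genes, median 0.20). BAX, which opens the outer mitochondrial membrane, averaged 11.6 ± 2.66 and 12.5 ± 0.83 FPKM (adjusted p = 0.794), and BCL2, which holds it back, 6.04 ± 1.4 and 3.70 ± 1.43 FPKM (adjusted p = 0.129).

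Genes of glycolysis and the hypoxia response were higher in 6 of 31 cases and lower in 0 (19.4% called, against 10.7% of all genes; median 0.29). The calls of ADM, PDK1 and SLC16A1 among the 6 each ended without day 30 replicate 2, and for ADM and PDK1 also without several other single libraries (highest limma adjusted p 0.0643, 0.0909 and 0.0512). HIF1A, the oxygen-regulated transcription factor, stood at 155, 151, 154 and 164 FPKM at day 14 and at 283, 279.7, 283 and 279 FPKM at day 30 (log2 change 0.85, SE 0.10, limma adjusted p = 2.96e-05). LDHA, lactate dehydrogenase, was at 50.4 to 54.6 FPKM and then at 98.5, 110.5, 129 and 80.1 FPKM, and GAPDH, often used as a reference gene, at 85.8 to 89.7 FPKM and then at 196, 171, 169 and 185 FPKM (1.04, SE 0.22, adjusted p = 0.00574). Every day 30 library lay above every day 14 library in all 3 genes, in 11 of the 31 on the list and in 12.8% of all genes. Chaperones and co-chaperones were lower in 6 of 33 cases, and 1 member of the list was higher (21.2% called, against 10.7% of all genes, median -0.23). Besides FKBP4 the lower genes were HSPB8, a small heat shock protein (61.5 ± 1.48 to 32.4 ± 3.2 FPKM), HSPH1 (88.8 ± 3.15 to 52.1 ± 5.82 FPKM), STIP1, which joins HSP70 and HSP90 (88.7 ± 3.29 to 57.0 ± 1.98 FPKM), HSPA4L and DNAJA4. The calls of HSPA4L and DNAJA4 ended without any 1 day 14 library and without day 30 replicate 1 (highest limma adjusted p 0.0980 and 0.0924). RBM3, an RNA-binding protein induced by cold, was the member that rose, from 7.29 to 9.10 FPKM to 57.0, 15.3, 25.8 and 22.1 FPKM. DDIT3, a transcription factor of endoplasmic reticulum stress, rose from 35.5, 40.0, 35.8 and 33.7 FPKM to 108, 77.7, 77.9 and 80.6 FPKM and passed with day 14 as 1 sample (limma adjusted p = 0.0369).

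Clock genes were called in both directions, 2 of 14 higher and 2 lower (28.6% called, against 10.7% of all genes). PER2, a repressor of the circadian clock, rose from 0.677 ± 0.109 to 2.09 ± 0.524 FPKM, and NR1D1, a nuclear receptor of the clock, was at 22.8 to 24.9 FPKM and then at 21.4, 9.91, 4.85 and 13.3 FPKM (log2 change -1.05, SE 0.26, limma adjusted p = 0.0153, and 0.0990 with only the 8 control libraries). BHLHE40 rose from 4.17 ± 1.14 to 19.8 ± 10.2 FPKM. CLOCK fell from 6.91 ± 1.13 to 2.75 ± 2.02 FPKM, a call that ended without any 1 day 14 library and without day 30 replicate 1 or 4 (highest adjusted p 0.0863). The hour of collection is not given. Of 21 glucocorticoid-responsive genes, 2 rose and 1 fell (14.3% called, against 10.7% of all genes). FKBP5 was at 65.5 to 70.7 FPKM and then at 30.3, 47.4, 66.4 and 30.1 FPKM, not called (limma adjusted p = 0.253).

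Growth factor genes were called in both directions, 5 of 39 lower and 4 higher (23.1% called, against 10.7% of all genes, median -0.0022). Among the rises, the calls of BDNF, IGFBP4 and IGFBP7 ended without 6, 7 and 2 of the 8 single libraries (highest limma adjusted p 0.0933, 0.0793 and 0.0544). Among the falls, those of INSR and ERBB2 ended without 7 and 5 (highest limma adjusted p 0.118 and 0.0793). KITLG, the ligand of the KIT receptor, stood at 8.32, 7.72, 8.27 and 8.31 FPKM and then at 2.06, 2.4, 4.29 and 1.82 FPKM (log2 change -1.37, SE 0.17, limma adjusted p = 7.82e-05). FGF1, a fibroblast growth factor, fell from 3.94 ± 0.106 to 2.54 ± 0.338 FPKM, while VEGFC, which promotes lymphatic growth, rose from 1.97 ± 0.431 to 4.63 ± 0.584 FPKM. In the TGF-beta and BMP list, 2 of 37 rose and 2 fell (10.8% called, against 10.7% of all genes). BMP6 rose from 2.08 ± 0.166 to 5.37 ± 1.95 FPKM, and GREM1, a BMP antagonist, fell from 2.89 ± 0.379 to 1.11 ± 0.624 FPKM, a call that ended without any 1 day 14 library and without day 30 replicate 1, 2 or 4 (highest adjusted p 0.0915). In the Wnt and Notch list 5 of 30 rose, among them DNER, MFNG and SFRP4, and 1, AXIN2, fell (20% called, against 10.7% of all genes). The call of AXIN2 ended without any 1 library but day 30 replicate 4 (highest limma adjusted p 0.142). Of 15 Schwann cell and nerve genes, 1 rose and 2 fell (20% called, against 10.7% of all genes). Besides CDH19, PRPH, the neuronal filament protein peripherin, fell from 4.26, 4.84, 4.46 and 3.99 FPKM to 1.16, 0.28, 0.1 and 0.71 FPKM (limma adjusted p = 9.83e-07, and 0.00695 with day 14 as 1 sample).

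Cell cycle genes rose in 2 of 29 cases, MCM6 and PCNA, and fell in 1, CDKN1B (10.3% called, against 10.7% of all genes). The calls of MCM6 and CDKN1B ended without day 30 replicate 2 or 3 and without day 14 replicate 1 or 4, among others for MCM6 (highest limma adjusted p 0.122 and 0.0644). Cytosolic ribosomal proteins rose in 4 of 55 and fell in 1 (9.09% called), and the proteasome list rose in 1 of 29 (3.45% called). Antioxidant genes rose in 2 of 23 and fell in 4 (26.1% called, against 10.7% of all genes). Of the antioxidant calls, that of TXN rests on a listed 0 at day 14. Those of PRDX3, SOD3 and GSTM3 ended without 8, 7 and 6 of the 8 single libraries (highest limma adjusted p 0.0991, 0.116 and 0.101). TXNIP, which inhibits thioredoxin, was among the antioxidant genes that fell, from 295 ± 5.47 to 193 ± 12.7 FPKM. Under TPM scaling 21 of 161 calls among list members and other named genes ended. Those with values in the text were TXNIP (limma adjusted p 0.331), STIP1 (0.203), HSPH1 (0.218), DNAJA4 (0.169), HSPA4L (0.170), FGF1 (0.164), HTR1B (0.170), PLAU (0.107), KLF15 (0.242), NR1D1 (0.0626), CLOCK (0.0881), CDKN1B (0.137), AXIN2 (0.478) and CYCS (0.0528). The calls of PRDX3 (limma adjusted p 0.500), SOD3 (0.472), ERBB2 (0.170) and INSR (0.140) ended there too. Cholesterol and fatty acid genes rose in 1 of 22 (4.55%) and homeobox genes in 1 of 19 (5.26%), against 10.7% of all genes called. Complement and coagulation genes fell in 1 of 21 (4.76%). Of 13 histone and chromatin genes, 0 passed limma's test, with 4 at an unadjusted p under 0.05.

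**Figure D5:**
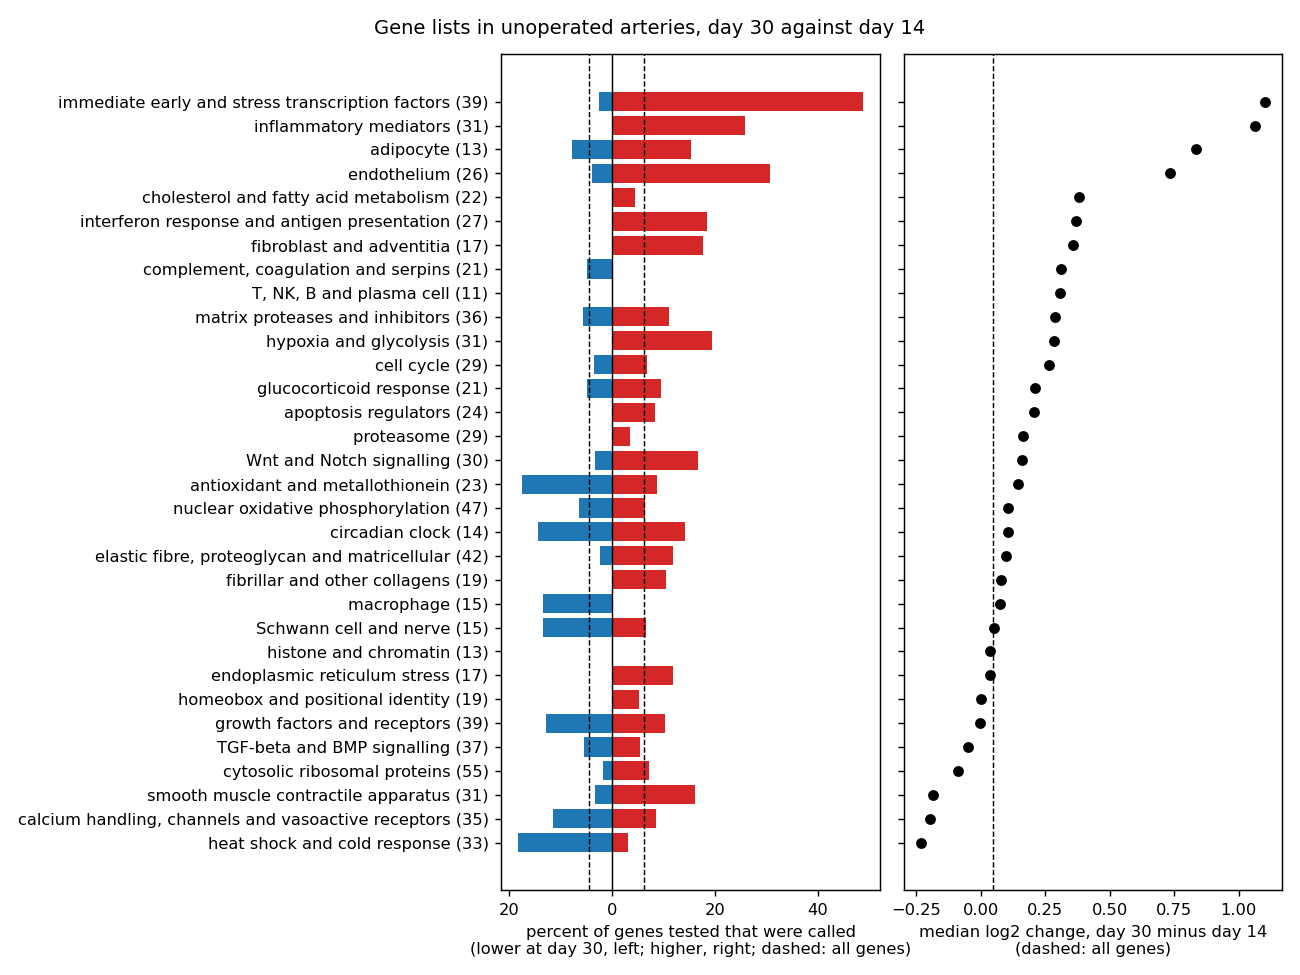
Left, the percent of tested genes in each list that passed the test, with higher genes at day 30 to the right in red and lower genes to the left in blue; right, the median log2 change of the list; the number tested is in parentheses, dashed lines mark all genes, and lists with fewer than 10 tested genes and the mitochondrially encoded genes are left out. The list of immediate early and stress genes stands at the top with 19 of 39 higher and a median of 1.10, and the chaperones at the bottom with a median of -0.23.

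The change between days was also compared with that in the transplanted arteries, which share no library with the controls. There, day 30 differed from day 14 in 1412 genes (16.3%). Of the 929 genes called in controls, 212 were called in grafts too, 22.8% of the control calls and 15.0% of the graft calls, 125 in the same direction and 87 in the opposite one. The difference between the 2 changes was called in 1121 genes (12.9%), 437 of them among the 929. Of the 28 largest changes in controls, 24 differed from those in the grafts, against 12.9% of all genes, but these genes were chosen for a large control change, which is 1 term of that difference. SSPN had a log2 change of -0.86 in grafts (limma adjusted p = 0.0867) where it rose by 5.37 in controls, a difference of 6.23 (SE 0.47, adjusted p = 3.39e-07). KITLG rose by 0.76 in grafts and fell by 1.37 in controls, a difference of -2.14 (limma adjusted p = 4.77e-05), and LDHA fell by 0.97 in grafts and rose by 0.96 in controls, a difference of 1.93 (limma adjusted p = 1.06e-05). ATF3 rose in both, by 1.96 in grafts and 1.32 in controls, with no difference called (limma adjusted p = 0.383). TUBB fell in both, by 0.94 and 1.51 (difference -0.57, limma adjusted p = 0.105). With day 14 controls counted as 1 sample, 93 genes differed between controls and grafts, and with control and graft of the same day and number as a block, 441 did.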

How the data were processed

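Total RNA of whole vessels was isolated with TRIzol, and paired reads were made on a NovaSeq X Plus, per the labels' protocols. The authors deposited 1 table of FPKM, with fastp, HISAT2, StringTie, RSEM and DESeq2 named in the submitters' processing notes. Versions and the genome build are not given in the sources used here. The table holds no counts and its low values do not step by whole reads, so read depth and counting error could not be known. Its 24964 transcript rows were summed to 23669 genes, of which 8657 had at least 1 FPKM in at least 4 of the 20 columns: 6907 carried a symbol there, 613 were named through a table of rabbit gene symbols (assembly mOryCun1.1, names only) and 1137 had none. Of the 929 called genes, 104 had no symbol.

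Groups came from the labels. Limma 3.58.1 (R 4.3.3), fitting the 5 groups of all 20 libraries together with variances moderated along a trend with expression, was applied to log2(FPKM + 1). Tests were two-sided. Benjamini-Hochberg adjustment covered all 8657 genes, and the threshold was 0.05. SE belong to log2 changes and SD to FPKM. Gene lists were counted, not tested. The procedure was tested on simulated data. Python 3.11.15, numpy 2.4.6, pandas 2.3.3 and matplotlib 3.10.9 were used.

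Named genes are the 14 largest rises and falls among genes with a symbol, called with day 14 as 4 libraries and as 1 sample, without overlap and with 5 FPKM or more on average in the higher group (falls were filled from genes called in the first count alone), up to 4 called members of each list, by adjusted p (up to 2 of the highest level where none passed), and a fixed set with the thrombospondins, contractile, collagen, clock and mitochondrial genes. Further list members are named to complete a count or show an order between libraries. The members, lists and tests were chosen with earlier results of these data known. Some of the named genes are not reported here.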

Additional observations from a re-analysis of the deposited data

Results flagged for a closer look

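In 24 of the 28 largest changes of the unoperated arteries, the change between days differed from that in the transplanted arteries by limma's test of the difference, against 12.9% of all genes. These genes were chosen for a large control change, which is 1 term of the difference, so the share is no finding about them. The differences, controls minus grafts on the log2 scale, were 6.23 for SSPN, 3.89 for FAM83D, 2.85 for TACR1, 1.92 for MYOCD, 1.84 for DNER, 1.61 for KLHL41, 1.54 for ALKAL2 and 1.52 for MFNG. They were 1.44 for UBB, 1.42 for ASB1, 1.21 for ECM1, 1.14 for BMPER, 1.05 for PRKCH and 0.90 for IFRD1. Among the falls they were -0.36 for FKBP4, -0.71 for ADAMTS15, -1.57 for ACSM5, -2.12 for STC2 and -3.83 for CDH19. MYOCD and CDH19 are among the 24 but passed the filter through 1 control day alone, so their differences are values without a test. Those of LYZ (-5.90), ATP6 (-11.64), ND4L (-12.00) and ATP8 (-14.03) rest on levels listed at or near 0 in the day 30 controls. For COX3 the difference was -4.61, and its day 30 controls were lower than day 14 but not near 0.

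Single libraries stood apart from the other 3 of their group in 18 of 282 groups of 4 values examined, where chance alone flags about 1 in 20. At day 14 these were replicate 1 for FAM83D (0.68 FPKM) and ENO3 (0.85 FPKM), replicate 2 for THRSP (0.31 FPKM), FOS (54.0 FPKM), FMOD (170.2 FPKM), MCM6 (1.65 FPKM) and KITLG (7.72 FPKM), replicate 3 for SSPN (1.27 FPKM) and ERRFI1 (14.8 FPKM), and replicate 4 for WNT11 (1.06 FPKM). At day 30 they were replicate 1 for DDIT3 (108 FPKM), RPL31 (1794 FPKM), TGFB3 (87.2 FPKM) and HSPB8 (27.6 FPKM), replicate 2 for ECM1 (12.3 FPKM), THBS4 (0.46 FPKM) and UQCRB (1.88 FPKM), and replicate 4 for B2M (57.7 FPKM).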

How the results depend on the processing

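The count of 929 genes became 2963 with library weights, 1536 with group weights, 29 with day 14 as 1 sample, 560 without day 30 replicates 2 and 3, and 21 with day 14 as 1 sample and without day 30 replicate 2. The last 2 settings, and leaving out grafts, were chosen after seeing the data. The corresponding counts of called list members were 414, 238, 9, 99 and 8, against 146 of 853. The difference from grafts, 1121 genes, became 557 under TPM scaling, 4257 with library weights, 93 with day 14 as 1 sample and 40 with both changes. Leaving out 1 library gave 627 to 934 genes, 100 to 161 list members and, graft libraries included, 865 to 1405 genes for the difference. With the other scalings, pseudocount, filters or libraries, each count stayed within 1.5 times its main value. A replicate block, fitted without vein, called 656 genes, 105 list members and 719 genes of the difference. Same-numbered libraries of the 2 days had deviations from their group means that correlated at -0.03, 0.06, 0.02 and 0.04. Differently numbered libraries correlated at -0.075 to 0.073. Because the day 14 libraries were nearly identical, these values cannot show whether the numbers pair the days. Control and graft libraries of the same day and number, which the labels do not tie to 1 animal, correlated at -0.18 to 0.13. With them as a replicate block, added after seeing the data, 441 genes of the difference were called.

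Changes of uncalled genes turned sign, on the log2 scale. MYH11 gave -0.0028 (median-of-ratios) and -0.0054 (quantile), and JUN -0.016 and -0.020 under those scalings and -0.22 with library weights. THBS4 gave -0.11 (quantile), -0.053 (without day 30 replicates 2 and 3) and -0.048 (day 14 as 1 sample and no day 30 replicate 2). ACTA2 gave 0.038 (TPM) and 0.14 (quantile), COX1 0.094 and MYLK 0.040 (TPM), S100A8 0.30 (library weights), and PER1 -0.071 (without day 30 replicates 2 and 3). Leaving out 1 library gave -0.016 to 0.12 for MYH11, -0.44 to 0.53 for JUN, -0.045 to 0.062 for THBS4, -0.037 to 0.22 for BAX and -1.38 to 0.64 for S100A8. Of 114 named calls, 89 held in each of 8 fits without 1 library and 25 ended in at least 1. The others among them were RPL7, RPL31, RPL29, ERRFI1, UCP2, HAS2, SLC16A1, TGFB3, FOXS1, GSTM3 and BMPR1A (highest adjusted p between 0.0512 for SLC16A1 and 0.131 for ERRFI1). Of 161 calls among list members and other named genes, 65 ended without day 30 replicates 2 and 3 and 38 with only the 8 control libraries. The causes were not tested.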

Other observations

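Further genes passed with day 14 counted as 4 libraries and as 1 sample but averaged under 5 FPKM in both groups, and were named after their values were seen. F2 passed the filter through day 14 controls alone and is given without a test. MAP1A, a microtubule-associated protein of neurons, stood at 0.1, 0.06, 0.07 and 0.12 FPKM at day 14 and at 2.94, 3.86, 3.86 and 3.37 FPKM at day 30 (log2 change 2.05, SE 0.19, limma adjusted p = 2.78e-06). F2, prothrombin, stood at 1.33, 1.38, 1.04 and 1.69 FPKM and then at 0, 0.06, 0.13 and 0.07 FPKM.

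Skeletal muscle markers were present in both groups, and 1 of 6 tested was called (16.7%, against 10.7% of all genes). That was ENO3, the muscle enolase, which rose from 0.458 ± 0.263 to 1.65 ± 0.413 FPKM (limma adjusted p = 0.00167). CKM, the muscle creatine kinase, was at 10.5 to 11.8 FPKM and then at 11.9, 12.8, 9.35 and 19.4 FPKM and was not called. Among adipocyte markers THRSP, a regulator of lipid synthesis, rose to 3.97, 13.8, 19.0 and 4.18 FPKM from 0 to 0.31 FPKM, and CIDEA, a lipid droplet protein, fell from 2.34 to 4.23 FPKM to 0, 0.92, 1.32 and 0 FPKM.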
